A study of Mus musculus with 18 samples.

Results

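The genes Sprr1a, Ly6d, Vmn2r3 and Bhlha15 were examined, 4 of the 54752 genes in a count table of mouse liver RNA. They were chosen by symbol because earlier results of the same data had shown them to be high in livers of mice given carbon tetrachloride (CCl4) alone and low or absent in both other groups. Their levels in the 3 groups are therefore given as a description, with no test. All 4 passed the filter on low counts, which left 21914 genes. Sprr1a and Vmn2r3 passed it through the Cirrhosis libraries alone, while Ly6d and Bhlha15 each reached its level in 10 of the 12 libraries outside that group.

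The study sequenced liver RNA of 18 male C57BL/6 mice, 6 in each group, with 1 library per mouse. Its protocol describes 45 mice, 15 per group. Cirrhosis-PTH mice were injected into the peritoneum 2 times a week with 10% CCl4 in corn oil (10 µl per g of mouse) and took a daily oral dose of PTH, 0.25 mg per g, prepared at 50 mg/ml. PTH stands for Pien Tze Huang, a remedy of traditional Chinese medicine, and does not mean the parathyroid hormone here. Cirrhosis mice received the same CCl4 injections and double distilled water by mouth. Control mice received corn oil injections in the same volume, and double distilled water by mouth. Livers were taken after 12 weeks, the mice were 6 weeks old at purchase, and no group received corn oil with PTH. Since Cirrhosis-PTH mice also received CCl4, "only" in a description of these genes refers to mice given CCl4 without PTH. Totals were 77.74 to 103.8 M counts in Cirrhosis-PTH, 80.56 to 101.7 M in Cirrhosis and 62.48 to 112.3 M in Control libraries. Loci that collect ribosomal RNA reads took 31.45 to 48.75% of counts in Cirrhosis-PTH, 37.14 to 41.03% in Cirrhosis and 39.92 to 60.77% in Control, with the highest shares in Control replicates 7 and 8. The 15 measured hepatocyte markers summed to 65810 to 74030 CPM (counts per 1 M counts, after scaling) in Cirrhosis-PTH, 45620 to 69870 in Cirrhosis and 70920 to 88390 in Control libraries.

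CCl4 is converted in hepatocytes to a radical that kills cells around the central vein, and repeated doses lead to regeneration, ductular growth and scarring. None of the 4 genes belongs to the usual programme of a hepatocyte. Sprr1a and Ly6d are best known from stratified epithelia, Vmn2r3 from sensory neurons of the nose, and Bhlha15 from cells that secrete large amounts of protein. In whole liver RNA, more cells of a type and more RNA per cell cannot be told apart.

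In every one of the 4 genes, all 6 Cirrhosis libraries lay above all 12 other libraries. Over all genes tested, 8.8% showed that order, and the genes were chosen for it. Among the 21914 tested genes ordered by the gap between the lowest Cirrhosis library and the highest other library, on log2(CPM + 0.1), Sprr1a came first with a gap of 5.58. Vmn2r3 came 2nd with 3.99, Ly6d 4th with 3.39 and Bhlha15 15th with 2.33. The gap was at least 1 for 142 genes, at least 2 for 22, at least 3 for 6 and at least 4 for 1, Sprr1a. Genes placed between them included Slc7a11 (rank 3), the cystine transporter, Igfbp1 (rank 5), an insulin-like growth factor binding protein, Cdkn1a (rank 6), the cell cycle inhibitor p21, and Atf3 (rank 12), a stress-induced transcription factor. The gene just before Bhlha15 in this order was Nupr1 (rank 14, gap 2.34) and the one just after it Gm3776 (rank 16, gap 2.19).

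**Figure D1:**
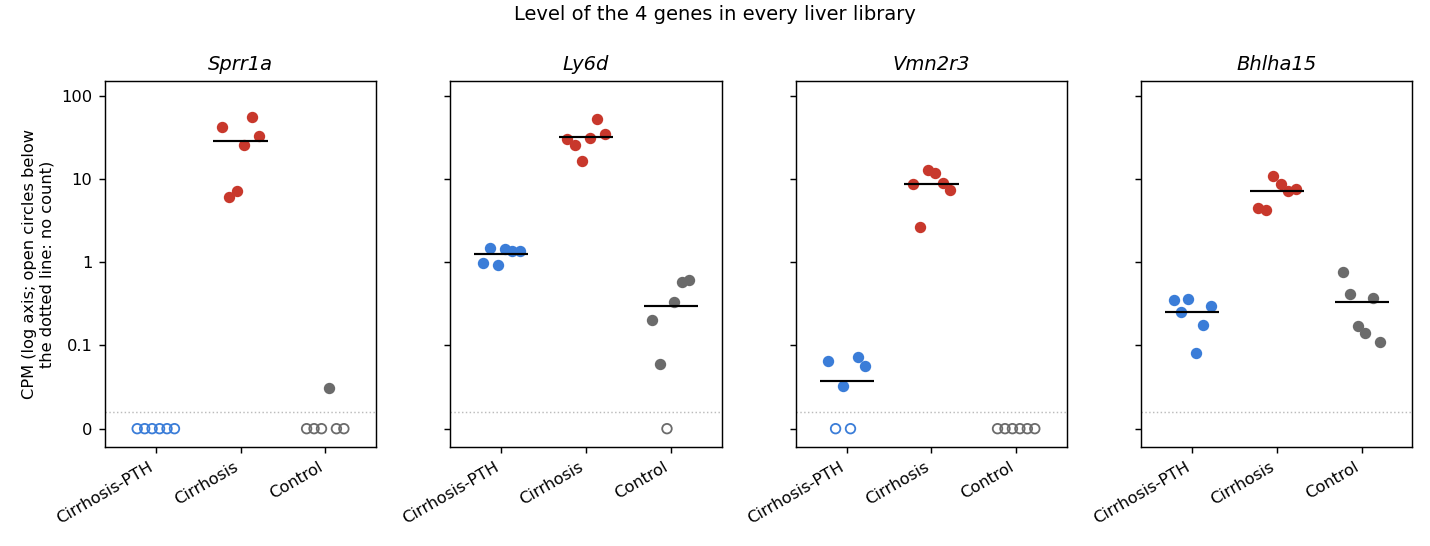
CPM of the 4 genes in each library on a log axis, with Cirrhosis-PTH on the left, Cirrhosis in the middle and Control on the right. Points are mice, black bars are means of 6 mice where they exceed 0.01 CPM, and open circles below the dotted line are libraries with no count. For all 4 genes the 6 Cirrhosis points lie above the other 12.

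**Figure D2:**
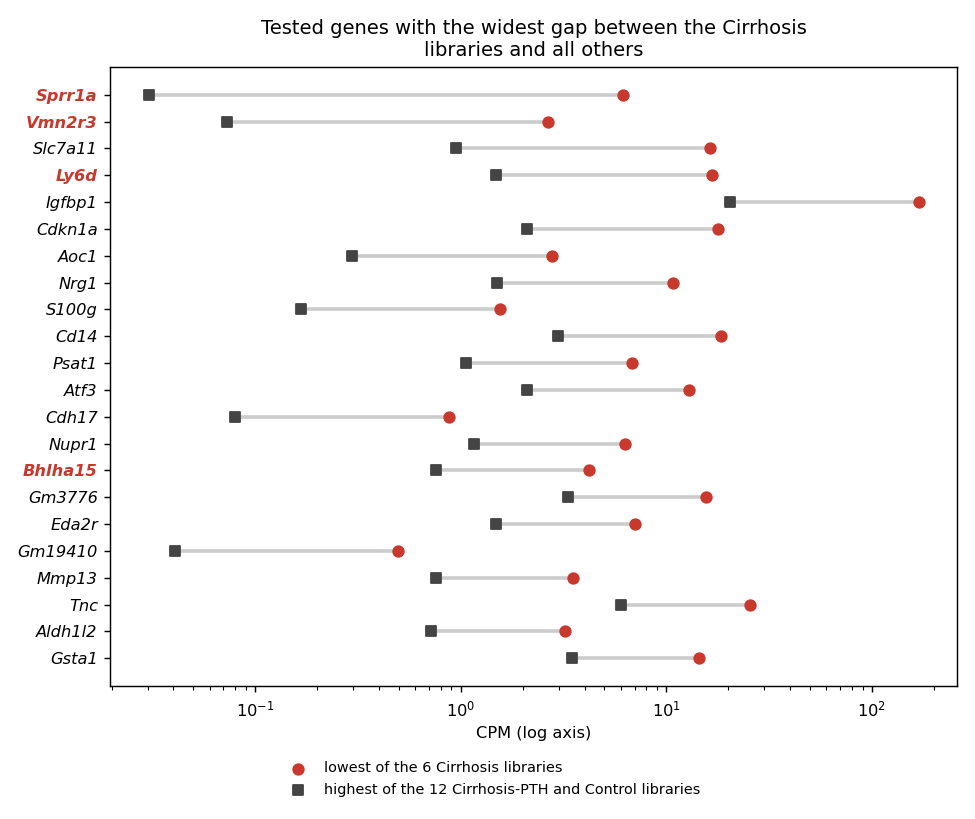
The 22 tested genes whose lowest Cirrhosis library lay at least 2 log2 units above the highest other library, in that order from the top. Red circles give the lowest Cirrhosis CPM and dark squares the highest CPM among the 12 Cirrhosis-PTH and Control libraries, on a log axis, and the 4 chosen genes are named in bold red.

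Sprr1a encodes a small proline-rich protein that transglutaminases link into the cornified envelope, the protein shell under the membrane of surface keratinocytes. In rodents it is also known as a gene induced in injured neurons and in stressed heart muscle, where cytokines acting through the receptor subunit gp130 raise it. The gene (ENSMUSG00000050359) lies on chromosome 3 of GRCm38, 92483952 to 92485895, minus strand, with 2 exons and 806 exon bases. No annotated gene overlaps it.

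Sprr1a had no count in any of the 6 Cirrhosis-PTH libraries, which allows at most 0.00567 CPM over the group (3 counts). In Cirrhosis replicates 1 to 6 it had 42.4, 6.12, 7.13, 25.3, 55.8 and 33.1 CPM. In Control it had 3 counts, all in replicate 6 (0.0304 CPM), and none in the other 5 libraries. Replicates 2 and 3 were the low Cirrhosis mice, and replicate 5 was 9.11 times replicate 2. The Cirrhosis mean was 28.3 ± 19.6 CPM (SD, n = 6). Sprr1a was at least 4855-fold lower in Cirrhosis-PTH than in Cirrhosis, a bound against a floor of 3 counts over the group. It was 3451-fold higher in Cirrhosis than in Control by the ratio of pooled counts, 18547 against 3, with an exact 95% interval of 1181 to 16740 that covers counting error only. Between Cirrhosis-PTH and Control no fold is given, since both groups were at or under the floor. Of the 23437 genes with 3 or fewer counts in each of those groups, Sprr1a had the most counts in Cirrhosis. Next were Dmbt1 with 915, a mucosal scavenger protein, Ctsj with 604, a cathepsin of the placenta, Rdh16f1 with 587, and Mmp10 with 511, the protease stromelysin-2.

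The sequence upstream of Sprr1a is shown because the gene had almost no counts outside the Cirrhosis group, and its promoter holds named motifs. The window runs from 250 bases before to 50 after the RefSeq start, at chr3:92485832-92486131 on the minus strand of GRCm38.p6 (RefSeq). Capitals mark matches to AP-1 (TGACTCA, here read as its reverse complement) and to the TATA box (TATAAA).
Sprr1a: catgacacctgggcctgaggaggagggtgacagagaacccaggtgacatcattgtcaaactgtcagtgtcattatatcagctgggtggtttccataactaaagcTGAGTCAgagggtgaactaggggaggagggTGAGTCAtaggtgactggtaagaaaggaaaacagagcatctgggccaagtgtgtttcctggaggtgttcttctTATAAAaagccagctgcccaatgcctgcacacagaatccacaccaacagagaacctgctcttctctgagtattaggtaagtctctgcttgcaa
The AP-1 matches began at positions -146 and -116 and the TATA match at -43, counted from the RefSeq start. Of 32851 RefSeq mouse promoters of the same length, 5.2% held the AP-1 letters and 13.6% held TATAAA, on either strand. The window also held 1 CCAAT, in 37.4% of promoters, and 6 matches to the E-box CANNTG, in 72.3%, and none of the marked matches overlapped another motif. It held no match to the CRE half-site (TGACGT, in 7.51% of promoters), the E-box form CATATG (3.91%), the STAT motif (TTCNNNGAA, 8.3%) or the core of the unfolded protein response element (ACGTG, 19.6%).

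The relatives of Sprr1a were a list of 38 symbols of the small proline-rich family and other cornified envelope genes. Only 8 were tested and 16 had no count in any library. In Cirrhosis against Control 5 rose and none fell, with a median log2 difference of 1.81, against 0.015 for all genes tested, of which 25.5% rose and 25.0% fell. None rose and 4 fell in Cirrhosis-PTH against Cirrhosis (median -0.73), against 20.1% of all genes that rose and 18.6% that fell. The 5 and the 4 each included Sprr2a1 and Sprr2a2, for which the same reads may have been counted. Both passed the filter on low counts through the Cirrhosis libraries alone, so their part in these counts is no support. In Cirrhosis-PTH against Control 1 rose and none fell (median 0.83), against 6.34 and 2.48% of all genes.

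Sprr2a1 and Sprr2a2, near-identical copies for which the same reads may have been counted, had 19 counts each in Cirrhosis-PTH, 541 and 550 in Cirrhosis and 0 in Control. Cirrhosis replicates 1 and 2 were the highest for Sprr2a1, at 2.14 and 1.23 CPM, and the other 4 lay between 0.183 and 0.495 CPM. Against the floor, Sprr2a1 was at least 101-fold and Sprr2a2 at least 102-fold higher in Cirrhosis than in Control. Both passed the filter on low counts through the Cirrhosis libraries alone, so these folds are a description and no p is given. Cstb, a cystatin that inhibits cathepsins, averaged 8.16 ± 1.89 CPM in Cirrhosis-PTH, 30.3 ± 9.21 in Cirrhosis and 8.81 ± 0.684 in Control (SD, n = 6 each). Cstb rose by 1.78 ± 0.19 on the log2 scale (SE) in Cirrhosis against Control and fell by 1.89 ± 0.19 in Cirrhosis-PTH against Cirrhosis. The adjusted p values were 1.82e-07 and 1.88e-07 (edgeR quasi-likelihood test). Tgm1, the transglutaminase that cross-links envelope proteins, rose by 1.83 ± 0.27 in Cirrhosis against Control and fell by 1.01 ± 0.27 in Cirrhosis-PTH against Cirrhosis (adjusted p = 2.42e-05 and 0.00578). Ppl, the linker periplakin, rose by 1.2 ± 0.19 in Cirrhosis against Control (adjusted p = 3.66e-05). It was the family gene that rose in Cirrhosis-PTH against Control, by 0.83 ± 0.19 (adjusted p = 0.00913). Lor, the envelope protein loricrin, Tchh, the hair protein trichohyalin, and Evpl, envoplakin, passed the test in none of the 3 comparisons.

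Genes next to Sprr1a in the epidermal gene cluster had few counts. Within 100 kb lay 12 annotated genes, of which 1 was tested and 6 had no count. Sprr1b, the closest paralogue, had 431 counts in Cirrhosis, of which 293 were in replicate 5 and 0 in replicate 3, and no count in the 12 libraries of Cirrhosis-PTH and Control. Ivl, the envelope precursor involucrin, had 4 counts in Cirrhosis-PTH, all in replicate 3, 162 in Cirrhosis, with 9 to 70 in each library, and 0 in Control. Neither was tested, because both were filtered out for low counts. In 3 of these 12 genes (Sprr1b, Sprr2i and Sprr2j-ps) there were more than 3 counts in Cirrhosis and 0 in all other libraries. That pattern was shown by 2.58% of the genes in the table and by 4.29% of the genes not tested, to which all 3 belong. The 3 genes and Ivl were named after their values were seen.

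Markers of squamous epithelium were measured beside Sprr1a, since such cells are its usual source. Of 20 markers, 8 were tested, and Dsg3, Krt1, Krt13, Krt15, Krt6a and Krt6b had no count in any library. Their summed level was 82.89 to 101.3 CPM in Cirrhosis-PTH, 75.85 to 106.3 in Cirrhosis and 71.24 to 102.8 in Control, ranges that overlapped. Most of this sum was Dsc2, with means of 46.2, 52.8 and 47.6 CPM in that order, and Perp, with 41.5, 32.7 and 36.7 CPM. The sum therefore says little about the markers with few counts. The keratin Krt17, tested and among those that rose in Cirrhosis against Control, had 12, 115 and 0 counts in Cirrhosis-PTH, Cirrhosis and Control. Without its Cirrhosis libraries Krt17 would not have passed the filter. The basal keratin Krt5 had 3 counts in Cirrhosis-PTH, 109 in Cirrhosis and 0 in Control. Krt14, its partner, had 119, 14 and 0 counts in Cirrhosis-PTH, Cirrhosis and Control, and Trp63, the p63 factor of squamous cells, had 28, 15 and 21. In Cirrhosis against Control 5 markers rose and none fell, and in Cirrhosis-PTH against Cirrhosis 1 rose and 4 fell. Of all genes tested, 25.5% rose and 25.0% fell in the first comparison, and 20.1% rose and 18.6% fell in the second. Krt80, a keratin of many epithelia, rose by 3.03 ± 0.37 in Cirrhosis against Control and fell by 1.95 ± 0.34 in Cirrhosis-PTH against Cirrhosis (adjusted p = 8.03e-07 and 0.000106). Sfn, the 14-3-3 protein stratifin, rose by 1.46 ± 0.28 and fell by 1.08 ± 0.27 (adjusted p = 0.000171 and 0.00305). Cdh3, P-cadherin, rose by 2.74 ± 0.45 in Cirrhosis against Control (adjusted p = 4.13e-05), and by 3.41 without Control replicates 7 and 8. Between Cirrhosis-PTH and Cirrhosis Cdh3 differed by -0.75 ± 0.40 (adjusted p = 0.157).

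Cytokine and injury genes known to accompany Sprr1a elsewhere were also counted. The counts of this and every later list stand beside the same shares of all genes tested. In Cirrhosis against Control 25.5% rose and 25.0% fell, and in Cirrhosis-PTH against Cirrhosis 20.1% rose and 18.6% fell. In Cirrhosis-PTH against Control the shares were 6.34 and 2.48%. Of 22 tested genes of gp130 and STAT3 signalling, 13 rose and 1 fell in Cirrhosis against Control (median 0.52), and 1 rose and 13 fell in Cirrhosis-PTH against Cirrhosis (median -0.70). In Cirrhosis-PTH against Control 3 rose and 1 fell, with 1 rise left without Cirrhosis-PTH replicate 3. Clcf1, a cytokine ligand of the family, averaged 2.13 ± 0.749 CPM in Cirrhosis-PTH, 6.57 ± 1.57 in Cirrhosis and 1.05 ± 0.317 in Control. Osmr, the oncostatin M receptor, rose by 2.40 ± 0.21 in Cirrhosis against Control and fell by 1.59 ± 0.21 in Cirrhosis-PTH against Cirrhosis (adjusted p = 3.41e-08 and 5.38e-06). Lif, another ligand, rose by 5.07 ± 0.63 and fell by 2.78 ± 0.52 (adjusted p = 9.53e-07 and 0.000173). The rise of Lif was 5.71 without Control replicate 6 and 5.75 without Control replicate 7.

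Genes that injured neurons switch on during regrowth, the setting in which Sprr1a was named a regeneration gene, had 15 tested members of 24. In Cirrhosis against Control 12 rose and 2 fell (median 2.31), and in Cirrhosis-PTH against Cirrhosis 2 rose and 10 fell (median -1.70). In Cirrhosis-PTH against Control 3 rose and none fell (median 0.04, and -0.04 with genes of 3 or fewer counts at their bound). Atf3 averaged 1.54 ± 0.404 CPM in Cirrhosis-PTH, 32.7 ± 13.4 in Cirrhosis and 0.450 ± 0.170 in Control, and rose by 6.13 ± 0.36 in Cirrhosis against Control (adjusted p = 4.2e-10). It fell by 4.40 ± 0.32 in Cirrhosis-PTH against Cirrhosis and rose by 1.73 ± 0.34 in Cirrhosis-PTH against Control (adjusted p = 1.35e-08 and 0.00352). Jun, the AP-1 subunit, rose by 2.31 ± 0.26 in Cirrhosis against Control and fell by 2.76 ± 0.26 in Cirrhosis-PTH against Cirrhosis (adjusted p = 9.58e-07 and 2.94e-07). Klf6, a zinc-finger factor, rose by 2.78 ± 0.29 and fell by 2.31 ± 0.28 (adjusted p = 4.38e-07 and 4.72e-06). Tubb3, a neuronal tubulin, rose by 6.11 ± 0.63 in Cirrhosis against Control (adjusted p = 6.82e-08). It had counts in 1 Control library, replicate 6, and the value was 9.36 without it. Tubb3 fell by 2.71 ± 0.46 in Cirrhosis-PTH against Cirrhosis (adjusted p = 6.74e-05).

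Ly6d encodes a small membrane protein of the Ly6 and urokinase receptor (uPAR) family, held at the surface by a lipid anchor. It marks squamous epithelia and, among blood cells, lymphoid progenitors that have turned to the B lineage. The gene (ENSMUSG00000034634) lies on chromosome 15 of GRCm38, 74762056 to 74763620, minus strand, with 3 exons and 744 exon bases, and no annotated gene overlaps it.

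In Cirrhosis-PTH replicates 1 to 6 Ly6d had 0.976, 1.49, 0.915, 1.43, 1.34 and 1.36 CPM. In Cirrhosis replicates 1 to 6 it had 30.2, 25.6, 16.6, 31.0, 52.6 and 34.7 CPM. In Control replicates 1, 2, 3, 6, 7 and 8 it had 0.200, 0.0595, 0, 0.335, 0.573 and 0.610 CPM. No pair of groups overlapped: the lowest Cirrhosis-PTH mouse was above the highest Control mouse. Group means were 1.253 ± 0.244 CPM in Cirrhosis-PTH, 31.8 ± 11.9 in Cirrhosis and 0.296 ± 0.257 in Control (SD, n = 6 each). The log2 difference was -4.66 ± 0.40 (SE) in Cirrhosis-PTH against Cirrhosis, 6.87 ± 0.48 in Cirrhosis against Control and 2.2 ± 0.47 in Cirrhosis-PTH against Control. All 6 Cirrhosis-PTH libraries above all 6 Control libraries was a pattern of 3.07% of the genes tested. Of the 4 genes, Ly6d alone showed that order, and it is a description because the low level in both groups entered the choice of the gene. Control replicates 7 and 8, the libraries with the largest ribosomal share, had the highest Control values, and without them the difference between Cirrhosis-PTH and Control was 2.93.

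The Ly6 and uPAR family had 38 of 44 listed symbols in the table and 14 tested. In Cirrhosis against Control 9 rose and 2 fell (median 1.58), in Cirrhosis-PTH against Cirrhosis 2 rose and 4 fell (median -0.54), and in Cirrhosis-PTH against Control 3 rose and none fell (median 0.76). Those 3 became 1 without any one of Control replicates 1, 2, 3 and 6 or Cirrhosis-PTH replicates 3, 5 and 6, and 5 without Cirrhosis-PTH replicate 1. Plaur, the urokinase receptor, averaged 0.899 ± 0.321 CPM in Cirrhosis-PTH, 9.42 ± 4.60 in Cirrhosis and 0.684 ± 0.267 in Control. It rose by 3.81 ± 0.38 in Cirrhosis against Control and fell by 3.38 ± 0.36 in Cirrhosis-PTH against Cirrhosis (adjusted p = 9.83e-08 and 5.11e-07). Cd59a, an inhibitor of the complement pore, moved the other way, with a fall of 1.16 ± 0.11 and a rise of 1.02 ± 0.11 (adjusted p = 1.53e-08 and 1.87e-07). Ly6a, the stem cell antigen Sca-1, rose by 1.58 ± 0.16 in Cirrhosis against Control and fell by 0.54 ± 0.16 in Cirrhosis-PTH against Cirrhosis (adjusted p = 6.47e-08 and 0.00875). It also rose in Cirrhosis-PTH against Control, by 1.04 ± 0.16 (adjusted p = 0.000288). Ly6e averaged 112.4 ± 10.9 CPM in Cirrhosis-PTH, 118 ± 21.0 in Cirrhosis and 83.2 ± 17.4 in Control. It rose in Cirrhosis against Control by 0.51 ± 0.13 (adjusted p = 0.00219), and Cirrhosis-PTH differed from Cirrhosis by -0.07 ± 0.13 (adjusted p = 0.703). Gpihbp1, which carries lipoprotein lipase into capillaries, passed in none of the 3 comparisons.

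Within 100 kb of Ly6d lay 17 annotated genes, 4 of them tested and 2 with no count. The nearest tested gene, Lynx1, a family member that binds nicotinic receptors, starts 10.57 kb away. It rose by 1.82 ± 0.34 in Cirrhosis against Control (adjusted p = 0.000137) and differed by -0.74 ± 0.32 in Cirrhosis-PTH against Cirrhosis (adjusted p = 0.0766). In 5 of the 17 genes there were more than 3 counts in Cirrhosis and none in the other 12 libraries. That pattern was shown by 2.58% of the genes in the table and by 4.29% of the genes not tested. The most frequent were the family members Gml and Gml2 with 193 and 136 counts, present in 5 of 6 Cirrhosis libraries and absent from replicate 3, the mouse with the lowest Ly6d. The others were Cyp11b1 with 12 counts, Gm17189 with 11 and D730001G18Rik with 4. All 5 were below the filter, and they were named after their values were seen.

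Among 13 tested markers of B cells and their progenitors, 9 rose and none fell in Cirrhosis against Control (median 0.89). In Cirrhosis-PTH against Cirrhosis none rose and 2 fell (median -0.22), and in Cirrhosis-PTH against Control 6 rose and none fell. The last count rested on single libraries: it was 1 without Control replicate 6, and 2 without Control replicate 2, Control replicate 3, Cirrhosis-PTH replicate 2 or Cirrhosis-PTH replicate 3. Their summed level was 17.68 to 22.97 CPM in Cirrhosis-PTH, 20.89 to 28.16 in Cirrhosis and 9.595 to 18.66 in Control. Blnk, a B cell adaptor, rose by 1.51 ± 0.20 in Cirrhosis against Control and fell by 0.76 ± 0.20 in Cirrhosis-PTH against Cirrhosis (adjusted p = 2.69e-06 and 0.00399). Cd22, a B cell lectin, rose by 1.22 ± 0.17 and fell by 0.53 ± 0.16 (adjusted p = 3.33e-06 and 0.0139). Ebf1, a factor of early B cells, rose by 1.18 ± 0.24 in Cirrhosis against Control (adjusted p = 0.000296). Of the B progenitor genes in the list, Vpreb2 had no count in any library. Igll1 had 0, 3 and 0 counts and Rag1 had 4, 25 and 0 counts in Cirrhosis-PTH, Cirrhosis and Control. In the same order Dntt had 159, 244 and 70 counts, Vpreb1 26, 58 and 28, Vpreb3 44, 33 and 19, and Rag2 7, 22 and 12. Of these, Dntt and Vpreb1 were tested, and neither passed in any comparison. The part of these cells in the level of Ly6d was not tested.

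Vmn2r3 encodes a type 2 vomeronasal receptor, a G protein-coupled receptor of the sensory neurons that detect pheromones. The gene (ENSMUSG00000091572) lies on chromosome 3 of GRCm38, 64257215 to 64289709, minus strand, and no annotated gene overlaps it. It has 9 annotated transcripts, 3 of them coding with up to 7 exons, and their exons together cover 17411 bases. The counts do not show which of these transcripts the reads came from.

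In Cirrhosis-PTH replicates 1 to 6 Vmn2r3 had 0.0642, 0, 0.0323, 0, 0.0729 and 0.0572 CPM, 21 counts in all. In Cirrhosis replicates 1 to 6 it had 8.69, 2.65, 12.7, 11.7, 8.85 and 7.39 CPM, 5753 counts in all. Control libraries had no count. The lowest Cirrhosis mouse, replicate 2, stood apart from the other 5, and the highest Cirrhosis value was 4.77 times its value. Means were 0.0378 ± 0.0322 CPM in Cirrhosis-PTH and 8.67 ± 3.56 CPM in Cirrhosis (SD, n = 6 each). Vmn2r3 differed by -7.73 ± 0.54 log2 units (SE) in Cirrhosis-PTH against Cirrhosis, and was at least 1070-fold higher in Cirrhosis than in Control, against the floor of 3 counts over the group. In Cirrhosis-PTH it was at least 4.98-fold higher than in Control against the same floor, and these groups overlapped, with 2 Cirrhosis-PTH libraries at 0.

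The promoter window of Vmn2r3 is shown for contrast with that of Sprr1a, since both genes had almost no counts outside the Cirrhosis group. It lies at chr3:64287368-64287667, minus strand, GRCm38.p6 (RefSeq), and its start is 2292 bases inside the outermost GENCODE start.
Vmn2r3: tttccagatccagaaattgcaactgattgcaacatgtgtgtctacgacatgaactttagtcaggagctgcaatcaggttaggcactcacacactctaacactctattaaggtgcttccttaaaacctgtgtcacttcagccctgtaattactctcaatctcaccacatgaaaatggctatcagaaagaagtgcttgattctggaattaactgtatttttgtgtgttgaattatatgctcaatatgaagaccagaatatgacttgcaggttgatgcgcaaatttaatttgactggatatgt
It held 3 matches to the E-box CANNTG and none to the other 7 motifs searched. No letters are capitalised, because no match other than the common E-box was found.

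Most other vomeronasal receptors had no count. Of the 120 other listed Vmn2r genes, with Vmn2r-ps pseudogenes not listed, 87 had no count and 6 were tested. In Cirrhosis against Control 1 rose and 1 fell (median -0.22), and in Cirrhosis-PTH against Cirrhosis 2 rose and none fell (median 0.93). Vmn2r57 averaged 0.738 ± 0.262 CPM in Cirrhosis-PTH, 0.259 ± 0.154 in Cirrhosis and 0.939 ± 0.281 in Control. It fell by 1.86 ± 0.36 in Cirrhosis against Control and rose by 1.51 ± 0.35 in Cirrhosis-PTH against Cirrhosis (adjusted p = 0.000166 and 0.00158). Vmn2r97 rose by 1.3 ± 0.42 in Cirrhosis against Control (adjusted p = 0.0139), a call lost with the replicate block. Vmn2r20 rose by 2.78 ± 1.07 in Cirrhosis-PTH against Cirrhosis (adjusted p = 0.0439), a call lost in 13 of the alternatives tried. Of 208 Vmn1r genes of the other receptor class, 176 had no count and 4 were tested. Vmn1r90 fell by 3.33 ± 0.96 in Cirrhosis against Control and rose by 3.48 ± 0.96 in Cirrhosis-PTH against Cirrhosis (adjusted p = 0.00863 and 0.00882), and both calls were lost with the replicate block.

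Of the 17 measured signalling genes and markers of vomeronasal and olfactory neurons, 6 had no count in any library. These were Trpc2, the channel on which vomeronasal transduction rests, and Cnga4, Gng13, Obp1a, Rtp1 and Rtp2. Omp, the olfactory marker protein, averaged 0.184, 0.289 and 0.193 CPM in Cirrhosis-PTH, Cirrhosis and Control and did not pass the test in Cirrhosis against Control (adjusted p = 0.337). Of 6 tested markers, 2 rose and none fell in Cirrhosis against Control, and none rose and 2 fell in Cirrhosis-PTH against Cirrhosis. The 2 were Adcy3, an adenylyl cyclase also found outside the nose, with a rise of 1.86 ± 0.20 and a fall of 0.95 ± 0.19 (adjusted p = 1.01e-07 and 0.000357), and Gnai2, a widely expressed G protein subunit, with 0.52 ± 0.06 and 0.34 ± 0.06 (adjusted p = 6.53e-07 and 0.000155). The summed level of the list was 54.77 to 68.18 CPM in Cirrhosis-PTH, 73.9 to 85.83 in Cirrhosis and 50.77 to 55.51 in Control. Most of it was Gnai2, with means of 53.6, 67.9 and 47.5 CPM in Cirrhosis-PTH, Cirrhosis and Control.

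The surroundings of Vmn2r3 were nearly silent. Within 100 kb lay 6 annotated genes, 5 of them with no count in any library and none tested. The nearest tested genes, Gm20656 at 158.3 kb by start in one direction and Vmn2r1 in the other, passed the test in none of the 3 comparisons.

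Bhlha15 encodes MIST1, a basic helix-loop-helix transcription factor that scales up the secretory machinery of pancreatic acinar cells, plasma cells and gastric chief cells, and that XBP1 of the unfolded protein response can induce. The gene (ENSMUSG00000052271) lies on chromosome 5 of GRCm38, 144190286 to 144194441, plus strand, with 2 exons and 3494 exon bases. No annotated gene overlaps it.

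In Cirrhosis-PTH replicates 1 to 6 Bhlha15 had 0.347, 0.255, 0.366, 0.0801, 0.177 and 0.295 CPM. In Cirrhosis replicates 1 to 6 it had 4.49, 4.198, 10.7, 8.73, 7.17 and 7.58 CPM. In Control replicates 1, 2, 3, 6, 7 and 8 it had 0.757, 0.417, 0.169, 0.142, 0.374 and 0.111 CPM. Unlike the other 3 genes, Bhlha15 had counts in every library. Its Cirrhosis-PTH and Control libraries overlapped, as did those of Vmn2r3. Means were 0.253 ± 0.109 CPM in Cirrhosis-PTH, 7.15 ± 2.50 in Cirrhosis and 0.328 ± 0.245 in Control (SD, n = 6 each). The log2 difference was -4.81 ± 0.42 (SE) in Cirrhosis-PTH against Cirrhosis, 4.41 ± 0.42 in Cirrhosis against Control and -0.40 ± 0.43 in Cirrhosis-PTH against Control. The last was 0.06 without Control replicate 1, the highest Control mouse.

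The promoter window of Bhlha15 is shown because it holds the core of the element bound in the unfolded protein response (ACGTG, in capitals). It lies at chr5:144190036-144190335, plus strand, GRCm38.p6 (RefSeq).
Bhlha15: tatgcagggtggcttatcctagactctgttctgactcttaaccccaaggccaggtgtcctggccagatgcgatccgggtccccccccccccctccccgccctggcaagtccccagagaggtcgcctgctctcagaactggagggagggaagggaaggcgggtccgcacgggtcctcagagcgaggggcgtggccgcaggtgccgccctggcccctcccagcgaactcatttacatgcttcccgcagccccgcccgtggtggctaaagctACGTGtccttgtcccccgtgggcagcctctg
The match began at position 20 after the start, and 19.6% of RefSeq promoters held these letters on either strand. The window also held 3 E-boxes of the form CANNTG, and no CATATG, the form MIST1 is known to bind. It held no match to the TATA box, the CCAAT box, the AP-1, CRE or STAT motifs, and the marked match overlapped none of the E-boxes. RefSeq windows were matched for 3 of the 4 genes, and Ly6d was not in the table.

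Of 17 tested genes of the secretory programme that MIST1 is known to govern, 9 rose and 3 fell in Cirrhosis against Control (median 0.33). In Cirrhosis-PTH against Cirrhosis 3 rose and 11 fell (median -0.46). Creb3l2, a membrane-bound factor of secretory capacity, averaged 20.3 ± 1.93 CPM in Cirrhosis-PTH, 50.3 ± 5.78 in Cirrhosis and 22.2 ± 2.05 in Control. It rose by 1.18 ± 0.08 in Cirrhosis against Control and fell by 1.31 ± 0.08 in Cirrhosis-PTH against Cirrhosis (adjusted p = 5.16e-10 and 8.36e-10). Fkbp11, a prolyl isomerase of the secretory pathway, rose by 1.81 ± 0.18 and fell by 2.29 ± 0.18 (adjusted p = 4.41e-08 and 8.27e-09). Gjb1, the gap junction protein connexin 32 and a known MIST1 target in the mouse, moved the other way, with a fall of 0.91 ± 0.08 and a rise of 0.67 ± 0.08 (adjusted p = 4.57e-09 and 5.38e-07). Ccpg1 (-0.57 ± 0.09, then 0.48 ± 0.09) and Copz2 (-0.46 ± 0.13, then 0.34 ± 0.13) moved as Gjb1 did in these comparisons. Gjb1 is also a major gap junction protein of hepatocytes. Among hepatocyte markers, 12 of 15 tested fell and none rose in Cirrhosis against Control, while 11 rose and 1 fell in Cirrhosis-PTH against Cirrhosis. The part of hepatocytes in the change of Gjb1 was not tested. Of the small GTPases of secretory granules among MIST1 targets, Rab3d rose by 0.92 ± 0.11 in Cirrhosis against Control (adjusted p = 8.86e-07), and Rab26 differed by 0.85 ± 0.41 (adjusted p = 0.0944).

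Of 23 tested stress response genes (unfolded protein response and integrated stress response), 18 rose and 1 fell in Cirrhosis against Control (median 0.82). None rose and 21 fell in Cirrhosis-PTH against Cirrhosis (median -1.42), and 1 rose and 4 fell in Cirrhosis-PTH against Control. The 4 became 2 without Control replicate 7, and 7 without Control replicate 6 or Cirrhosis-PTH replicate 2. Hspa5, the chaperone BiP, averaged 228 ± 18.3 CPM in Cirrhosis-PTH, 823 ± 151 in Cirrhosis and 275 ± 49.4 in Control. It rose by 1.58 ± 0.13 in Cirrhosis against Control and fell by 1.85 ± 0.13 in Cirrhosis-PTH against Cirrhosis (adjusted p = 2.13e-09 and 1.48e-09). Creld2, a chaperone of the endoplasmic reticulum, rose by 2.06 ± 0.16 and fell by 2.38 ± 0.16 (adjusted p = 2.18e-09 and 1.79e-09). Xbp1 differed by 0.06 ± 0.12 in Cirrhosis against Control (adjusted p = 0.697) and fell by 0.39 ± 0.12 in Cirrhosis-PTH against Cirrhosis (adjusted p = 0.0127), in counts that do not separate its spliced form. Atf3, described above, belongs to this list too.

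Basic helix-loop-helix proteins bind as pairs, and the Id proteins block them. Of 18 tested partners and inhibitors, 9 rose and 1 fell in Cirrhosis against Control (median 0.58), and 1 rose and 6 fell in Cirrhosis-PTH against Cirrhosis (median -0.16). The inhibitor Id1 averaged 3.49 ± 0.767 CPM in Cirrhosis-PTH, 11 ± 3.28 in Cirrhosis and 3.43 ± 2.23 in Control, a rise of 1.68 ± 0.32 and a fall of 1.66 ± 0.32 (adjusted p = 0.00024 and 0.000358). The E protein Tcf4 rose by 0.38 ± 0.08 in Cirrhosis against Control (adjusted p = 0.000249). Bhlhe41, a repressor of the clock, fell by 1.63 ± 0.19 in Cirrhosis against Control (adjusted p = 2.87e-07). Id2 fell by 0.69 ± 0.17 in Cirrhosis-PTH against Cirrhosis (adjusted p = 0.00342).

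Cell types known for Bhlha15 were measured by their markers. Of 15 tested plasma cell markers, 8 rose and none fell in Cirrhosis against Control, and none rose and 5 fell in Cirrhosis-PTH against Cirrhosis. Fkbp11 and Derl3, a factor of protein degradation in the endoplasmic reticulum, belong to this list and to the secretory list. Prdm1, the plasma cell regulator Blimp-1, rose by 1.95 ± 0.26 in Cirrhosis against Control and fell by 1.13 ± 0.25 in Cirrhosis-PTH against Cirrhosis (adjusted p = 2.08e-06 and 0.000843). Mzb1 and the antibody genes Jchain, Igkc, Iglc1, Iglc2, Ighm and Igha did not pass in Cirrhosis-PTH against Cirrhosis (adjusted p from 0.359 to 0.819). Of these, Igkc and Igha rose in Cirrhosis against Control, by 1.84 ± 0.69 and 2.44 ± 0.52 (adjusted p = 0.0352 and 0.000944), and the others did not pass. Summed plasma cell markers were 253.3 to 342.9 CPM in Cirrhosis-PTH, 275.7 to 431.6 in Cirrhosis and 207.6 to 300.9 in Control. Most of this sum was Sdc1, with means of 145, 123 and 127 CPM in that order, and Txndc5, with 77.7, 99.6 and 87.3 CPM. Of 21 pancreatic acinar markers only 3 were tested, of which 1 fell and none rose in Cirrhosis against Control, and Prss1 and Ptf1a had no count. The acinar sum was 2.099 to 3.907 CPM in Cirrhosis-PTH, 1.605 to 17.4 in Cirrhosis and 4.34 to 10.04 in Control. Cirrhosis replicate 2 stood apart with the 17.4 CPM, against 1.605 to 2.67 in the other 5 Cirrhosis libraries, and it held all the Cirrhosis counts of 11 of the 19 markers found in that group. Without it 2 acinar markers fell in Cirrhosis against Control. Replicate 2 had the lowest Sprr1a, Vmn2r3 and Bhlha15 of the Cirrhosis mice, and without it Bhlha15 differed by 4.53 in Cirrhosis against Control and by -4.93 in Cirrhosis-PTH against Cirrhosis. The part of acinar RNA in these levels was not tested. The part of plasma cells in the level of Bhlha15 was not tested.

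Ductular cells line the bile ducts and multiply in CCl4 livers, and their 18 markers were measured as a further epithelial type. In Cirrhosis against Control 13 rose and 2 fell (median 1.73), and in Cirrhosis-PTH against Cirrhosis none rose and 7 fell (median -0.63). The summed level was 88.28 to 193.8 CPM in Cirrhosis-PTH, 161.0 to 331.3 in Cirrhosis and 116.6 to 207.0 in Control. Sox9, a ductular factor, averaged 5.94 ± 0.906 CPM in Cirrhosis-PTH, 22.8 ± 10.9 in Cirrhosis and 5.71 ± 0.883 in Control. It rose by 1.99 ± 0.24 in Cirrhosis against Control and fell by 1.94 ± 0.24 in Cirrhosis-PTH against Cirrhosis (adjusted p = 1.5e-06 and 3.31e-06). Cldn4, a tight junction protein, rose by 4.68 ± 0.64 and fell by 2.90 ± 0.55 (adjusted p = 4.65e-06 and 0.000258). Spp1, Prom1, Cdh1, Elf3 and Ehf also rose in Cirrhosis against Control and complete the 7 that fell in Cirrhosis-PTH against Cirrhosis. The remaining markers that rose in Cirrhosis against Control did not pass in Cirrhosis-PTH against Cirrhosis. Among them were Krt19 (-0.04 ± 0.39, adjusted p = 0.955), Krt7 (-0.25 ± 0.37, 0.652), Epcam (-0.70 ± 0.36, 0.14) and Cftr (-0.43 ± 0.47, 0.515). In Cirrhosis-PTH against Control 3 markers rose and none fell (median 0.80), and 1 to 6 rose with 1 library left out. The part of ductular cells in the levels of the 4 genes was not tested.

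**Figure D3:**
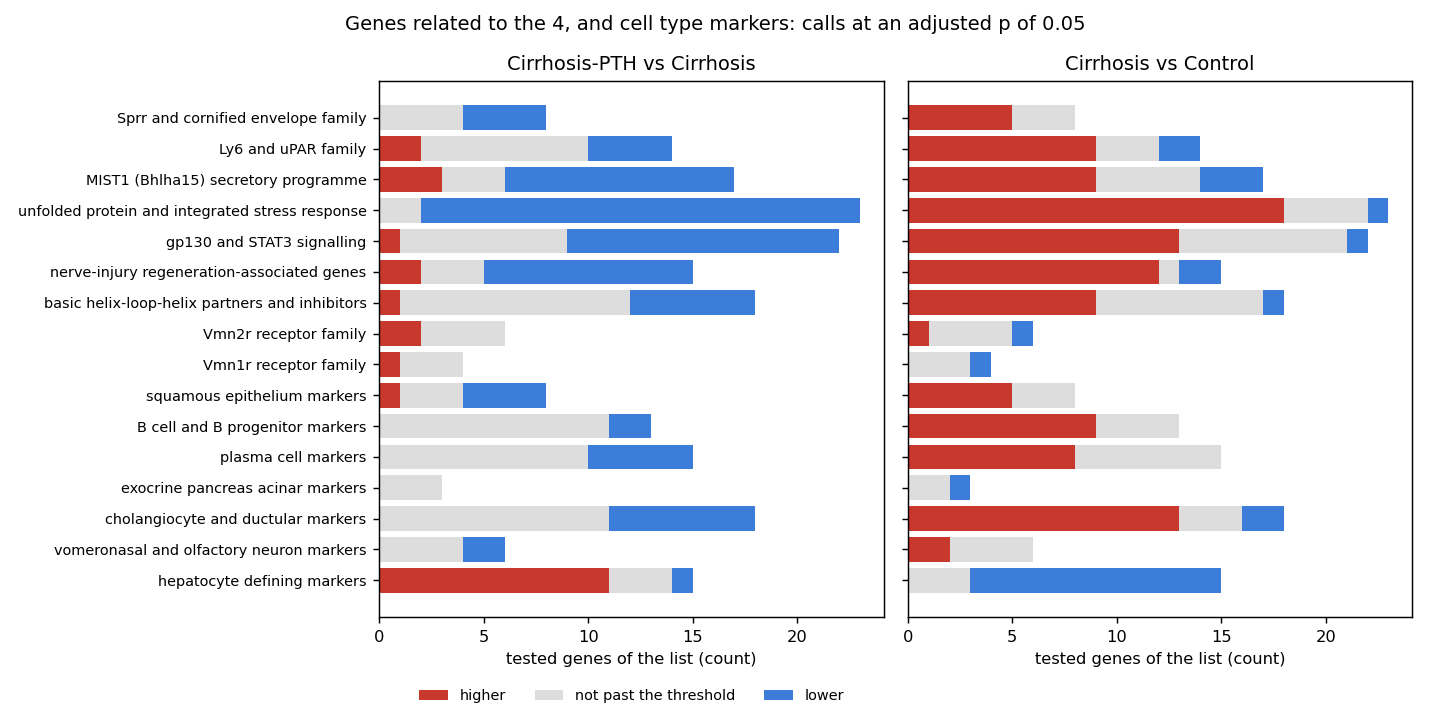
Counts of tested genes in each list that were higher (red), lower (blue) or not past an adjusted p of 0.05 (grey), in Cirrhosis-PTH against Cirrhosis on the left and Cirrhosis against Control on the right (edgeR quasi-likelihood test). The bar of the stress response list (4th from the top) is blue for 21 of 23 genes on the left and red for 18 of 23 on the right. Of all genes tested, 20.1% were higher and 18.6% lower in the comparison on the left, and 25.5 and 25.0% in that on the right.

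Over the 40 tested neighbours of the 4 genes, 5 on each side of each, 14 rose and 7 fell in Cirrhosis against Control, which is 21 of 40 beside 50.5% of all genes tested in either direction. In Cirrhosis-PTH against Cirrhosis 3 rose and 8 fell, beside 38.6% of all genes, and in Cirrhosis-PTH against Control 4 rose and none fell, beside 8.82%. Around Sprr1a 5 rose and 1 fell in Cirrhosis against Control, among them the calcium-binding proteins S100a11 (3.29 ± 0.27, adjusted p = 3.46e-09) and S100a10 (1.88 ± 0.26, adjusted p = 1.46e-05), more than 1000 kb away. Around Ly6d 5 rose and 1 fell, around Vmn2r3 2 and 2, and around Bhlha15 2 and 3. Sprr2a1 and Sprr2a2, for which the same reads may have been counted, were both among the genes that rose around Sprr1a. They passed the filter on low counts through the Cirrhosis libraries alone. Both also fell in Cirrhosis-PTH against Cirrhosis. The nearest tested neighbours of Sprr1a, Gm9774 and Gm4202, passed in none of the 3 comparisons. Tecpr1, an autophagy protein gene on the opposite strand, ends next to the end of Bhlha15. It averaged 13.9 CPM in Cirrhosis-PTH, 15.1 in Cirrhosis and 11.3 in Control and rose by 0.42 ± 0.11 in Cirrhosis against Control (adjusted p = 0.00295). Whether the counting used strand is not given in the sources used here, so reads that run past the end of either gene cannot be assigned with certainty. On the other side Lmtk2, a kinase gene on the strand of Bhlha15, ends 2.082 kb before it, and was named after its values were seen. It differed by 0.03 ± 0.07 in Cirrhosis against Control (adjusted p = 0.78) and fell by 0.21 ± 0.07 in Cirrhosis-PTH against Cirrhosis (adjusted p = 0.03). Gm26925, whose start is nearer, passed in none of the 3 comparisons.

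**Figure D4:**
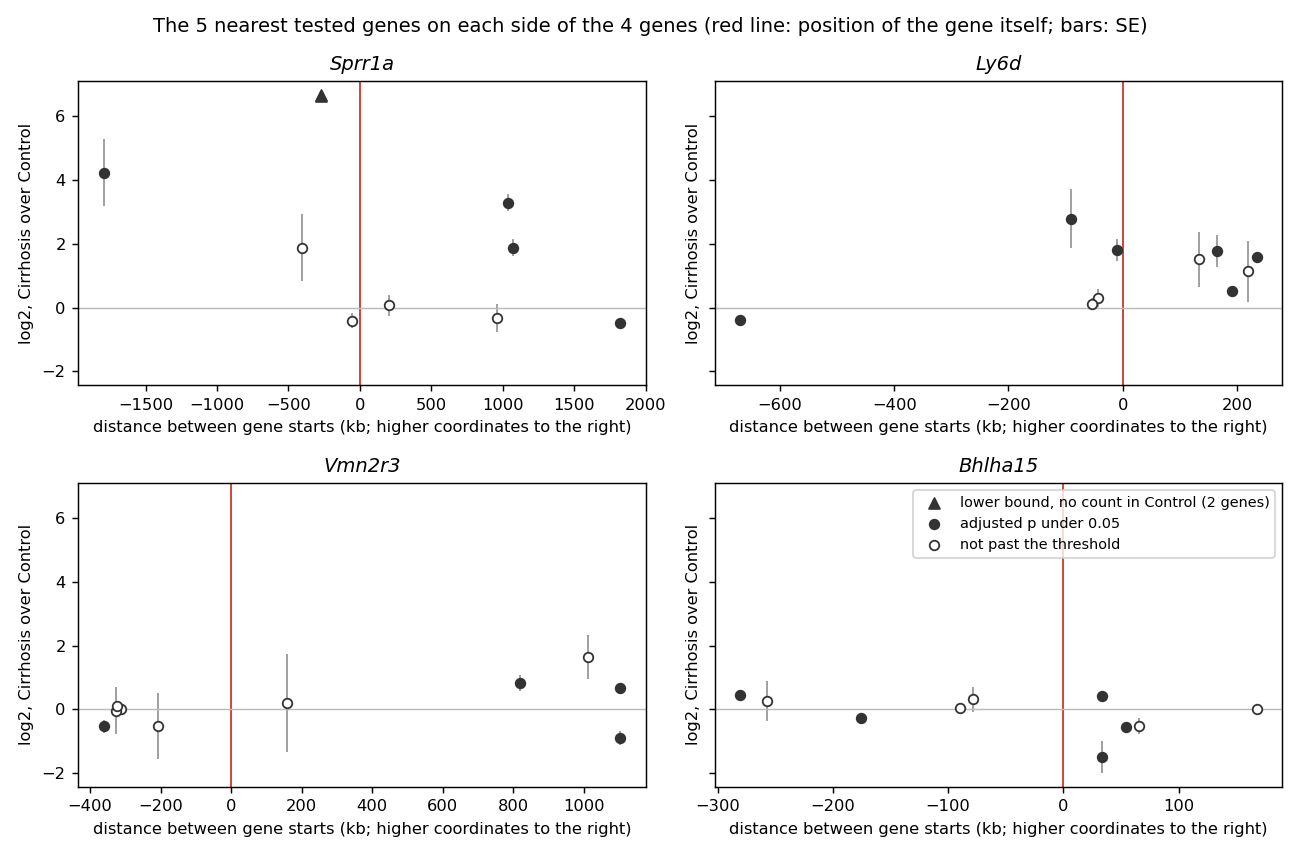
Log2 difference of Cirrhosis over Control for the 5 nearest tested genes on each side of Sprr1a, Ly6d, Vmn2r3 and Bhlha15, by distance between gene starts in kb. Filled points passed an adjusted p of 0.05, open points did not, bars are SE, and the triangle gives the lower bounds of Sprr2a1 and Sprr2a2, which had no count in Control. Around Vmn2r3 and Bhlha15 no neighbour past the threshold lay above 1.

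Within the Cirrhosis group the 4 genes differed in how evenly the 6 mice expressed them. The coefficient of variation was 69.3% for Sprr1a, 41.1% for Vmn2r3, 37.6% for Ly6d and 34.9% for Bhlha15. Per kb of exon, which allows levels of different genes to be compared, Cirrhosis means were 42.7 ± 16.1 CPM per kb for Ly6d, 35.1 ± 24.3 for Sprr1a, 2.05 ± 0.715 for Bhlha15 and 0.498 ± 0.204 for Vmn2r3. Ly6d and Sprr1a did not differ beyond their spread. The value of Vmn2r3 rests on the 17411 bases of all its annotated transcripts.

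The mice high for one gene were not always those high for another. Replicate 3 had the highest Vmn2r3 and Bhlha15, the lowest Ly6d and the next to lowest Sprr1a. Replicate 5 had the highest Sprr1a and Ly6d, and replicate 2 the lowest Sprr1a, Vmn2r3 and Bhlha15. Over the 6 Cirrhosis mice, on log2(CPM + 0.1), Sprr1a and Ly6d had a Pearson r of 0.83 (exact permutation p = 0.0208, adjusted over 6 pairs 0.121) and a Spearman rho of 0.77 (exact permutation p = 0.103, adjusted 0.308). Without replicates 2 and 3, the farthest from the median of Sprr1a, r was 0.74. Vmn2r3 and Bhlha15 had an r of 0.76 (exact permutation p = 0.0403, adjusted 0.121) and a rho of 0.83 (exact permutation p = 0.0583, adjusted 0.308). Without replicates 2 and 3, r was 0.35, so this relation rested on them. The other 4 pairs had r between -0.20 and 0.40, each with an adjusted exact permutation p of 0.967. No pair passed the threshold after adjustment, and the smallest two-sided p that 6 mice allow is 0.00278. The sign of these 4 turned with single mice left out.

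**Figure D5:**
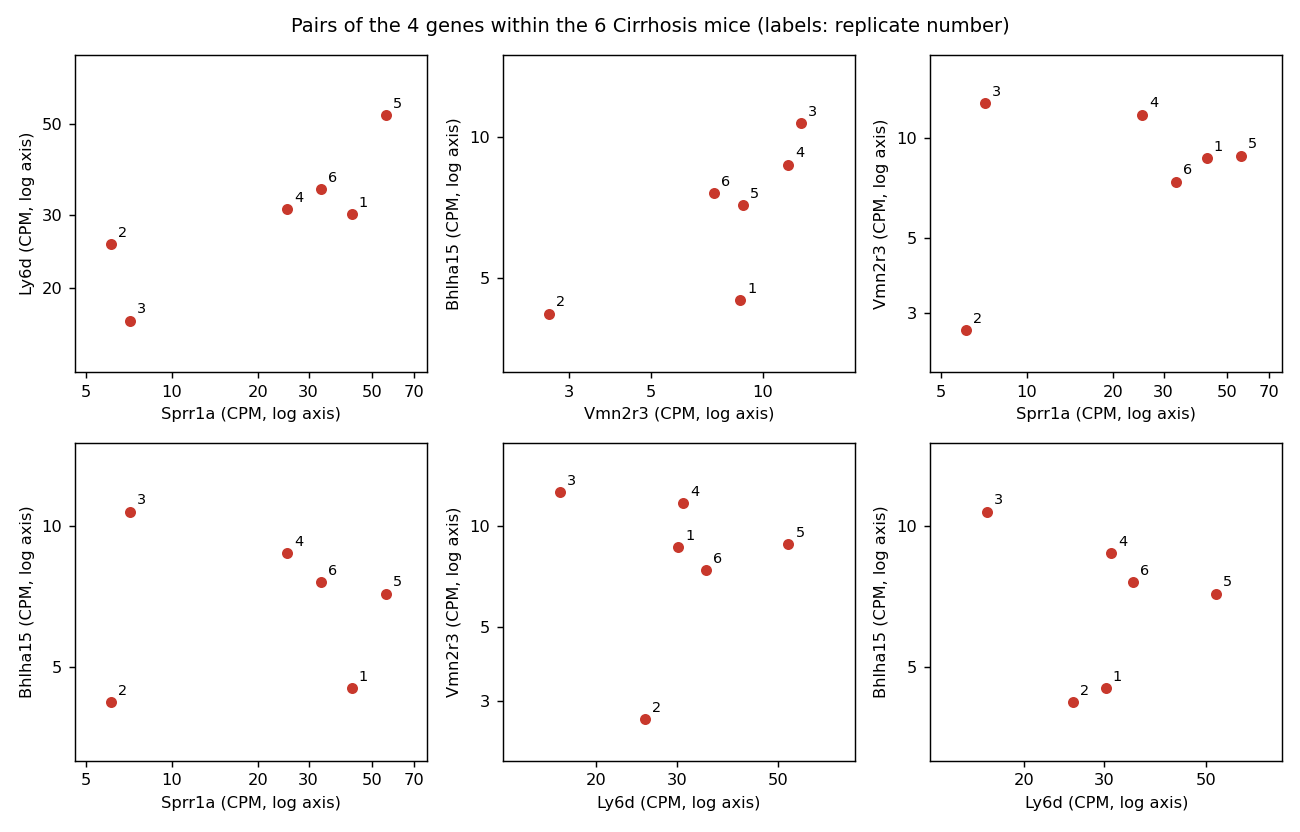
Each pair of the 4 genes in the 6 Cirrhosis mice, as CPM on log axes, with the replicate number beside each point. Sprr1a and Ly6d are both highest in replicate 5, and Vmn2r3 and Bhlha15 are both highest in replicate 3.

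The tested genes whose levels ran most like each of the 4 over the 18 libraries were ranked by Pearson r of log2(CPM + 0.1), which mainly follows the difference between the groups. For Sprr1a these were Srxn1 (r = 0.99), a sulfiredoxin of the oxidative stress response, Atp13a4 (0.99), a cation-transporting ATPase, and Ctsj (0.98). Within the 6 Cirrhosis mice alone the r of Srxn1 was 0.96, of Atp13a4 0.90 and of Ctsj 0.58. These 6 libraries are among the 18 that ranked the genes, so each r within Cirrhosis given here is a description and not independent of the choice. For Ly6d they were Tpm1 (0.98), a tropomyosin, Rhoc (0.98), a small GTPase, and Mmp14 (0.98), a membrane metalloprotease, with 0.91, 0.96 and 0.64 within Cirrhosis. For Vmn2r3 they were S100g (0.98), the calcium-binding protein calbindin-D9k, Sh2d6 (0.98), an SH2 domain gene, and Hid1 (0.98), a gene of secretory granule maturation, with 0.94, 0.84 and 0.77 within Cirrhosis. For Bhlha15 they were Aldh1l2 (0.98), a mitochondrial enzyme of folate metabolism, Ddit3 (0.97), the stress factor CHOP, and Snhg15 (0.96), a noncoding RNA, with 0.50, 0.91 and 0.60 within Cirrhosis. Srxn1 averaged 24.7 ± 2.18 CPM in Cirrhosis-PTH, 165 ± 67.6 in Cirrhosis and 21.6 ± 2.68 in Control. S100g averaged 0.0782 ± 0.0623 CPM in Cirrhosis-PTH, 4.32 ± 1.499 in Cirrhosis and 0.0441 ± 0.0604 in Control. Ddit3 averaged 2.78 ± 0.525 CPM in Cirrhosis-PTH, 14.9 ± 4.23 in Cirrhosis and 3.53 ± 0.611 in Control. Between the 4 genes themselves r over the 18 libraries was 0.87 to 0.98, values that the choice of the genes fixes.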

How the data were processed

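The values used are whole-number counts per gene that the authors deposited for 18 liver libraries, 1 per mouse, unscaled. The submitters' processing notes name the build GRCm38 and, among other tools, HISAT2 2.2.1 and StringTie 2.1.5, with no role for either. The strandedness of counting, the annotation release and filters are not given in the sources used here. The 3 groups were fitted together with edgeR 4.0.16 (R 4.3.3), with TMM scaling, filterByExpr, its robust quasi-likelihood F-test and Benjamini-Hochberg adjustment over 21914 genes at 0.05. CPM are counts per 1 M of the scaled library. DESeq2 1.42.0 was an alternative. A group with no count was set to a floor of 3 counts. Coordinates are from GENCODE mouse release M21 on GRCm38 and promoters from RefSeq. The 4 genes, the lists, the tests and the rule for named genes were chosen with earlier results of these data known. The rule takes, of each list, the 3 genes with the smallest p in Cirrhosis against Control and the 2 with the smallest in Cirrhosis-PTH against Cirrhosis. It adds Sprr relatives, the highest Ly6 genes, the 3 most alike genes and the nearest neighbours. The fit was tested on simulated data. Same-numbered libraries of different groups did not deviate together (r from -0.09 to 0.07 over 14 pairs), so replicate numbers were not treated as pairs.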

Additional observations from a re-analysis of the deposited data

Results flagged for a closer look

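Sprr1a in the Control group had 1 library, replicate 6, at 0.0304 CPM (3 counts) while the other 5 had no count. Its gap to the nearest other library was the whole range of the group, which marked it as standing apart by Dixon's ratio. Such a mark falls on about 1 in 20 groups by chance, and with 5 libraries at 0 any single count earns it.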

How the results depend on the processing

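In Cirrhosis-PTH against Cirrhosis and in Cirrhosis against Control, the log2 differences of the 4 genes kept their sign under the alternatives run (DESeq2 size factors or DESeq2, library sizes without ribosomal loci, no filter, 12 libraries, the replicate block, and leaving out libraries). The genes were chosen for these differences, and every Cirrhosis library lay above every other library. The alternatives could therefore hardly turn a sign, and its keeping is no support. For Ly6d in Cirrhosis against Control (6.87), the replicate block gave 7.498 and leaving out both Control replicates 7 and 8 gave 7.6257. For Ly6d in Cirrhosis-PTH against Control (2.2) these gave 2.90 and 2.93, and leaving out 1 library gave 1.94 to 2.49. With 1 library left out, the Vmn2r3 bound in Cirrhosis-PTH against Control ran from 1.88 to 2.602 and the Bhlha15 difference from -0.59 to 0.059861, the last without Control replicate 1.

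In Cirrhosis-PTH against Control, 33 list genes passed, 55 with DESeq2 and 20 to 37 with 1 library left out (21 without Control replicate 2, 20 without Cirrhosis-PTH replicate 3). Neighbours that passed numbered 4, with 7 by DESeq2, 2 with 12 libraries and 1 to 5 with 1 library left out. They were 1 or 2 without Control replicate 2, 3 or 6 or Cirrhosis-PTH replicate 3, 5 or 6. Of the Sprr list, 5 rose in Cirrhosis against Control, with 10 unfiltered, 9 by DESeq2 and 8 without Control replicates 7 and 8.

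With 1 Cirrhosis mouse left out, r ran from -0.73 to 0.49 for Sprr1a and Bhlha15 (0.22 without replicate 1, 0.49 without replicate 3) and from -0.75 to 0.85 for Sprr1a and Vmn2r3 (-0.75 without replicate 2). It ran from -0.65 to 0.49 for Ly6d and Vmn2r3 and from -0.44 to 0.52 for Ly6d and Bhlha15, both upper values without replicate 3. The replicate block gave no value for genes described by a bound or a pooled ratio. List counts of 2 or fewer moved with 1 library left out in 23 cases, by at most 3 genes. The causes of these changes were not tested. Genes with few counts (Sprr1b, Ivl, Gml) were removed by the filter on low counts and were not tested in the main fit.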
